A study of Mus musculus with 2 samples.

Results

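The genes described here are 4 members of the plasminogen activation system, out of 32285 genes in the count tables. Plau (ENSMUSG00000021822) encodes urokinase-type plasminogen activator and Plat (ENSMUSG00000031538) encodes tissue-type plasminogen activator. Plaur (ENSMUSG00000046223) encodes the cell-surface receptor of urokinase, and Serpine2 (ENSMUSG00000026249) encodes protease nexin-1, a serpin that inhibits both activators. The set was chosen by the measured values of Plau, which had the lowest vancomycin-to-control log2 ratio, after adding 10 CPM to both libraries, among ranked microglia genes, and the other members were added as its receptor, related activator and inhibitor. The low ratio that selected Plau is therefore a description and supports nothing else.

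Plasminogen is a circulating zymogen that urokinase or tissue-type activator cleaves to plasmin, a protease that degrades fibrin and matrix proteins. Urokinase bound to its receptor acts at the surface of migrating cells, and receptor and activator are widely used as signs of activated macrophages and microglia. In the nervous system tissue-type activator is made by endothelial cells, neurons and glia, and protease nexin-1 is best known as a secreted product of glia.

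Single-cell RNA was measured in Nf1-OPG mice, a model of optic nerve glioma, to ask how an antibiotic acting on gut bacteria alters the cells of the nerve. All mice carried a germline Nf1 allele inactivated by a neomycin cassette in exon 31 and a floxed Nf1 allele deleted by Cre from the GFAP promoter in neuroglial progenitors, so both groups share this genotype and neither is wild type. One group received vancomycin from 6 to 12 weeks of age, and the other is labelled control, for which the series design names PBS. Tissue was taken at 12 weeks of age and each group is 1 library made from a pool of 10 mice. With 1 library per group no test was possible, and every interval is a 95% interval for counting error only, exact Poisson for levels and ratios and exact binomial (Clopper-Pearson) for shares. Spread between mice was not measured.

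Depth is counted in UMIs, molecular tags that let each captured RNA be counted once. There were 144451114 UMIs in 16596 barcodes with vancomycin and 25609899 UMIs in 4272 barcodes in the control. Cells were typed by fixed marker gates, which gave 800 vancomycin and 842 control microglia, the resident macrophages of the nervous system. These were 5.09% of the 15726 kept vancomycin cells and 20.5% of the 4108 kept control cells. The median depth of microglia was 6185.5 and 5239 UMIs. The tissue label of both libraries is optic nerve, yet the gate for oligodendrocytes, the myelin-forming cells of the nerve, found 3811 cells with vancomycin and 0 of 4108 in the control (at most 0.0898%). The protocols shared by both libraries also describe sorted meningeal dura, and the title of the control library has a tag (ON) that the other lacks, whose meaning was not assumed. The libraries share 100 barcode sequences, and 25.3% of vancomycin and 23% of control cells met no gate or more than 1.

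In the mm10 build (GRCm38, GENCODE M21) Plau lies on chromosome 14 from 20836660 to 20843385 on the plus strand. Plat lies on chromosome 8 from 22757727 to 22782844 on the plus strand. Plaur lies on chromosome 7 from 24462484 to 24475968 on the plus strand, and Serpine2 on chromosome 1 from 79794197 to 79861180 on the minus strand. Their principal transcripts have 11, 14, 7 and 9 exons, and none of the 4 overlaps another gene of the count table. Promoter sequences were available only for Plaur and Serpine2, from RefSeq with build GRCm38.p6, and not for Plau and Plat. The pair is shown for that reason, and with 2 genes no link of a motif to the ratios can be read. The AP-1 motif was searched because the AP-1 factors, dimers of Fos and Jun proteins, are known regulators of the urokinase system. These factors are also described among the early response genes. Each sequence is the 250 bases before the annotated start site, written 5′ to 3′ in the direction of the gene, at chr7:24462233-24462482 on the plus strand for Plaur and at chr1:79858666-79858915 on the minus strand for Serpine2. The Serpine2 start site lies inside the longer GENCODE span of the gene. Capitals mark the match to the AP-1 motif TGANTCA.
Plaur: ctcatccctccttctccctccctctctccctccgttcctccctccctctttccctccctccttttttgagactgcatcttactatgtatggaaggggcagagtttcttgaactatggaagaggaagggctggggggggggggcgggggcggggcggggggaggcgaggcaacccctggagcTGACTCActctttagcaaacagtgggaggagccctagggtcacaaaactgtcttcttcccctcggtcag
Serpine2: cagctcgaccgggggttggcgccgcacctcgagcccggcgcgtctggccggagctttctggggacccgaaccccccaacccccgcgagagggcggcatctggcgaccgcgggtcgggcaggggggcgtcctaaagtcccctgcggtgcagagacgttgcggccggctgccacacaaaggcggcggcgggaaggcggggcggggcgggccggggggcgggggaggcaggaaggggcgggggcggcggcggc
The Plaur window held 1 AP-1 match, TGACTCA, whose first base is at -69 from the start site, and the Serpine2 window held 0. Both strands were searched, and 6.75% of 32851 promoter windows of this length held a match. The GC box GGGCGG was found 3 times in the Plaur window and 6 times in the Serpine2 window, with 32.7% of all windows holding at least 1. These are matches of letters and do not show binding.

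Plau RNA lay mainly in microglia and border-associated macrophages among the types with at least 50 cells, and its level in microglia was far lower with vancomycin. Levels are given as CPM, the summed UMIs of a gene in a type scaled to a total of 1000000 for that type. The 800 vancomycin microglia held 246 Plau UMIs, or 43.81 CPM (38.5 to 49.64). The 842 control microglia held 3934, or 785.6 CPM (761.3 to 810.6). The vancomycin level was 17.9-fold lower (15.8 to 20.5), a ratio of 0.0558. Divided by the ratio in T cells, the only other type with enough Plau UMIs for that comparison, the ratio was 0.258. That divisor, 0.216 (0.0767 to 0.536), rests on 7 and 19 UMIs, so 0.258 is uncertain. Whether the Plau UMIs of T cells are their own or stray RNA was not tested, so 0.258 is not read as a corrected ratio.

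The gap showed both in the share of microglia with a Plau UMI and in the UMIs of such cells. These measures are not independent, since a lower level also leaves more cells without a UMI. A Plau UMI was found in 21.4% (18.6 to 24.4) of vancomycin and 44.7% (41.3 to 48.1) of control microglia. In T cells, given for comparison and not as a measured background, the shares were 0.172% and 0.721% at median depths of 4013 and 5117.5 UMIs. After every cell was thinned to 1000 UMIs, which left out 18 vancomycin and 56 control microglia, the shares were 4.35% (3.03 to 6.02) and 26% (22.9 to 29.2). A vancomycin cell with any Plau RNA held 1.44 UMIs on average and a control cell 10.5. Cells with 10 or more Plau UMIs numbered 1 of 800 with vancomycin (0.125%) and 140 of 842 in the control (16.6%). The highest single cell had 15 UMIs with vancomycin and 67 in the control.

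Microglia were then divided by their MHC class II RNA, the antigen-presentation genes that mark one activated state, because this state was much more common with vancomycin. The cut was 10 UMIs of H2-Aa, H2-Ab1 and H2-Eb1 per 10000 UMIs of the cell. It gave 285 low and 515 high cells with vancomycin and 617 low and 225 high cells in the control. Between 5 and 20 UMIs per 10000, near the cut, lay 5.75% and 7.01% of microglia. The same 2 libraries and the same cells enter these strata, so they are a description of the selected contrast and not independent of it.

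Plau was lower with vancomycin in both states. In microglia low in MHC class II it stood at 66.71 CPM (105 UMIs) with vancomycin and 850 CPM (2986 UMIs) in the control, 12.7-fold lower (10.5 to 15.6). In microglia high in MHC class II it stood at 34.89 CPM (141 UMIs) and 634.3 CPM (948 UMIs), 18.2-fold lower (15.2 to 21.9). Cells with 10 or more Plau UMIs made up 16.5% of low and 16.9% of high control microglia, against 0.351% (1 cell) and 0% (0 cells) with vancomycin. Thus the control cells rich in Plau were about equally frequent in both states.

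Within each library Plau was lower in the MHC class II high state. The high-to-low ratio was 0.523 (0.403 to 0.68) with vancomycin and 0.746 (0.693 to 0.803) in the control. Over 5 bins of rising MHC class II RNA the vancomycin level went from 77.63 through 46, 39.65 and 48.12 to 25.34 CPM. The control level went from 847.8 through 858.1, 785.6 and 566.9 to 623.1 CPM. No vancomycin bin reached the level of any control bin. When the vancomycin bins were weighted by the control's mix of bins, Plau came to 61.46 CPM and the ratio to 0.0782 in place of 0.0558.

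**Figure D1:**
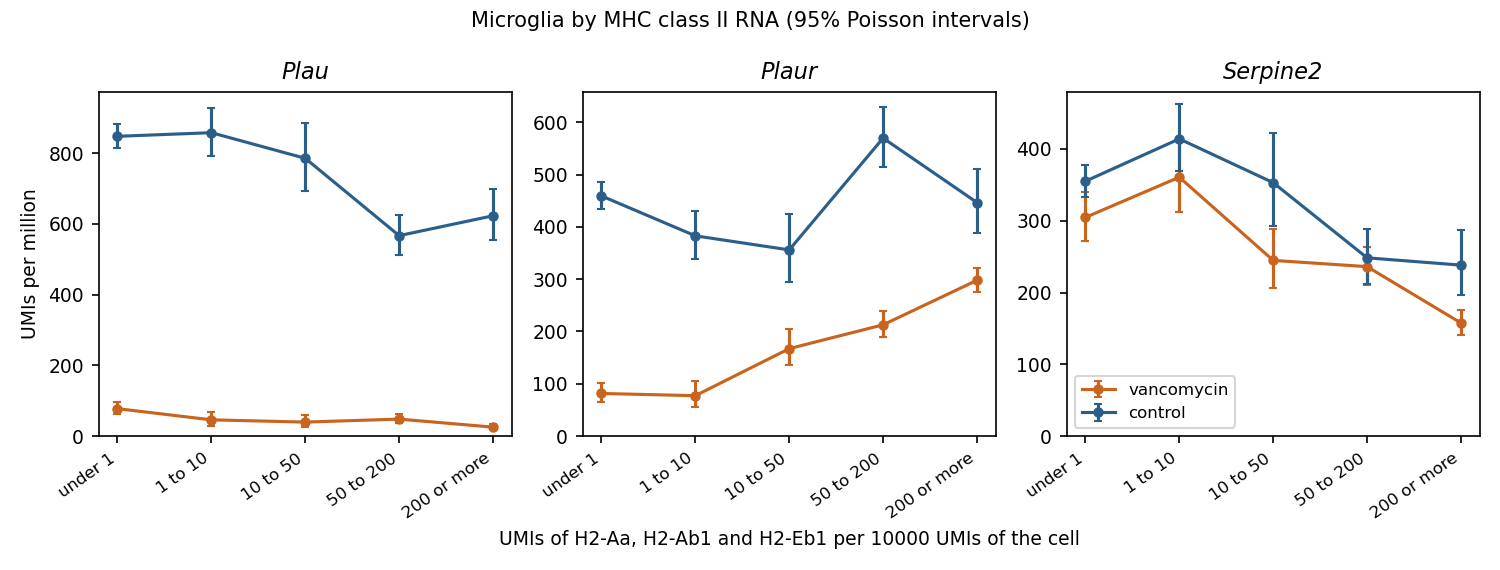
Level of Plau, Plaur and Serpine2 (CPM, linear axes with a scale of their own) in microglia binned by the summed UMIs of H2-Aa, H2-Ab1 and H2-Eb1 per 10000 UMIs of the cell, for vancomycin (orange) and control (blue). Points are summed levels and bars 95% Poisson intervals; Plau stays between 25.34 and 77.63 with vancomycin and between 566.9 and 858.1 in the control, while vancomycin Plaur is 81.51 in the first bin and 297.9 in the last.

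Depth of the cell moved with the Plau level, so it is given beside it. In control microglia Plau stood at 194.7 CPM in cells under 3000 UMIs, 399.6 CPM from 3000 to 6000, 993.9 CPM from 6000 to 12000 and 839 CPM above that. In vancomycin microglia the same bins gave 17.08, 45.76, 49.34 and 36.22 CPM. The control was higher in each of the 4 depth bins.

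Ranked by log2 ratio after adding 10 CPM to both libraries, Plau was the lowest of 1771 microglia genes with at least 50 UMIs and 100 CPM, at -3.89. The next were the ferritin light chain gene Ftl1 (-3.29), its copy Ftl1-ps1 (-3.23), the ribosomal protein copy Rpl10-ps3 (-3.21), the sulfiredoxin gene Srxn1 (-3.08) and the calcineurin regulator gene Rcan1 (-2.96). Without the added 10 CPM, Srxn1 and Ftl1-ps1 had lower ratios than Plau, 0.0386 and 0.0472. Reads of Ftl1, Ftl1-ps1 and Rpl10-ps3 can be shared with near-identical copies, so their counts are uncertain. Ftl1 and Rpl10-ps3 were also lower in T cells, with ratios of 0.13 (0.124 to 0.136) and 0.0682 (0.0651 to 0.0713). Their ratios in fibroblasts were 0.105 and 0.102. Srxn1 was at 5.201 and 5.561 CPM in T cells, a ratio of 0.935 (0.664 to 1.33), and Rcan1 had a ratio of 1.32 (0.992 to 1.77) there. Plau in T cells had 7 and 19 UMIs, a ratio of 0.216 (0.0767 to 0.536). The count tables were made with Cell Ranger 7.2.0 for vancomycin and 6.0.1 for the control, and the part of this difference in any ratio was not tested. Within the MHC class II low state the chemokine gene Ccl7 was lowest (-3.60) and Plau second of 1858 genes (-3.49). Within the high state Plau was lowest of 1661 genes (-3.84), ahead of Xist (-3.47), the RNA of the inactive X chromosome. Xist over all microglia was 133.7 CPM with vancomycin and 423.4 CPM in the control (751 and 2120 UMIs). The high state held 165 and 829 of these UMIs, at 40.83 and 554.7 CPM. The rest lay in the low state, where the libraries had about equal levels, so the gap lay in the high state. Xist was thus lower in the high than in the low state with vancomycin, and higher in the control. The part of the pools' makeup by sex was not tested, nor whether cells of both states come from the same mice. This holds also for the high-state and high-to-low ratios of the members.

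Plau was also found in border-associated macrophages, and at low levels in most other types. The 59 border-associated macrophages of the vancomycin library, which line the meninges and vessels, had 144.1 CPM (96.5 to 206.9), with a UMI in 30.5% of cells. This was the highest level of any vancomycin type with at least 50 cells, and its interval lies above that of vancomycin microglia. When microglia and border-associated macrophages were gated as one macrophage family, 117 vancomycin and 9 control border-associated macrophages had 122.3 and 133.3 CPM, a ratio of 0.918 (0.4 to 2.59). That ratio rests on 68 and 6 UMIs. In the other 14 vancomycin types of at least 50 cells Plau was at most 5.467 CPM, in mature dendritic cells. Natural killer cells had 0 Plau UMIs in both libraries (97 and 80 cells, where 3 cells with a UMI would be 3.09% and 3.75%). Plasma cells had 0 and 1, and fibroblasts 2 and 1. Among types with fewer cells, 31 vancomycin pericytes had 87.77 CPM (32.21 to 191), from 6 UMIs.

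Markers of other myeloid cells were read in the gated microglia. The same lists made the gate, which limits the markers of other families in a cell. Low sums of these and high sums of microglia markers therefore follow in part from the gate and are not a check of purity. The 9 border-associated macrophage markers summed to 118.1 CPM with vancomycin and 134.2 CPM in the control, with Cd163 and Lyve1 at 0 in both. The 10 microglia markers summed to 10200 and 12730 CPM. Monocyte markers summed to 74.79 and 30.95 CPM, with Chil3 at 0 in both. The sums were larger for dendritic cell markers, 633.6 and 565.3 CPM for type 1, 517.7 and 663.4 CPM for plasmacytoid and 193.8 and 409.2 CPM for mature dendritic cells. Few markers carried these sums: of the 7 for type 1, 2 and 1 reached 100 CPM. For plasmacytoid and mature dendritic cells 1 of 7 did so in each library. Clec9a, a type 1 marker, and Klk1, a plasmacytoid marker, were at 0 in both. Neutrophil markers summed to 136.4 and 148.6 CPM, with S100a8 and 4 others at 0 in both. Of these 8 markers only 1, Csf3r, had a UMI with vancomycin, and 3 did in the control. The part of any such cells in the Plau ratio was not tested.

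**Figure D2:**
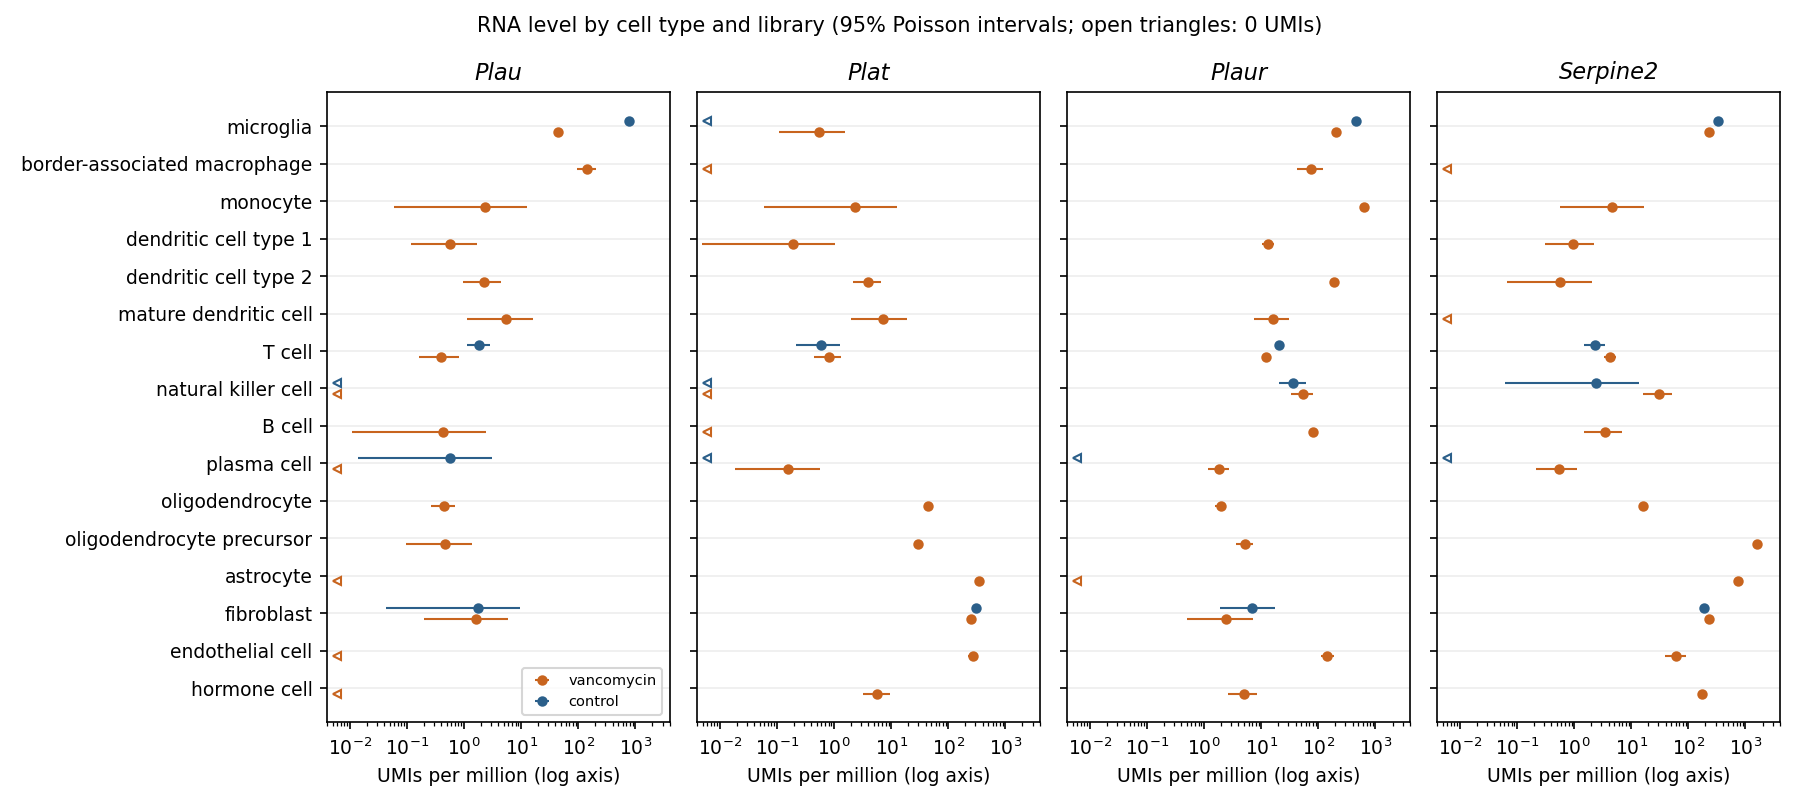
RNA level of each of the 4 genes in every cell type with at least 50 cells in a library, in CPM on a log axis, for vancomycin (orange) and control (blue), with 95% Poisson intervals and open triangles at 0 UMIs. Control microglia stand apart for Plau at 785.6, Plat lies in fibroblasts and in vancomycin astrocytes and endothelial cells, and Serpine2 is highest in oligodendrocyte precursors at 1590.

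Plat, the other activator, was a gene of stromal, vascular and glial cells and not of microglia. Microglia held 3 Plat UMIs in 800 vancomycin cells and 0 in 842 control cells, where 3 counts would be 0.599 CPM, so no ratio was formed. Fibroblasts, the collagen-producing cells of the nerve sheath and meninges, had 246.8 CPM (219.9 to 276.2) with vancomycin, against 307.7 CPM (264.2 to 356.4) in the control. The ratio was 0.802 (0.665 to 0.971), with a Plat UMI in 63.4% and 62.1% of cells. After thinning, the shares of fibroblasts were 21.6% and 24.1%. The fibroblast ratio is much nearer to 1 than that of Plau in microglia.

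In the vancomycin library, whose control counterparts had under 50 cells, astrocytes had 347.1 CPM of Plat (291.2 to 410.5) and endothelial cells 271.4 CPM (223.3 to 326.8). The intervals of astrocytes, endothelial cells and fibroblasts overlap with a neighbour in that order, so the order among them is not resolved for each pair. Oligodendrocytes had 43.92 CPM and oligodendrocyte precursors 30.03 CPM. T cells had 0.8001 and 0.5853 CPM in the 2 libraries, with a Plat UMI in 0.315% and 0.166% of cells.

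Plaur, the receptor, was also lower in vancomycin microglia, by less than Plau. Its level was 203.2 CPM (191.6 to 215.3; 1141 UMIs) with vancomycin and 454.9 CPM (436.4 to 474; 2278 UMIs) in the control. The ratio was 0.447 (0.416 to 0.48), a log2 ratio of -1.12, which placed it 104 from the lowest of the 1771 ranked genes. A Plaur UMI was found in 37.4% and 50.8% of microglia, and in 10.7% and 22.9% after thinning. In T cells the unthinned shares were 3.41% and 5.77%.

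The Plaur gap was wider in microglia low in MHC class II. There the levels were 80.06 and 443.2 CPM, a ratio of 0.181 (0.149 to 0.217), or 5.54-fold lower. In the high state they were 251.1 and 482.4 CPM, a ratio of 0.521 (0.473 to 0.574), or 1.92-fold lower. The 2 ratios have intervals that do not overlap, and replicate spread is unknown. In vancomycin microglia Plaur was 3.14-fold (2.6 to 3.81) higher in the high than in the low state, and in control microglia the same ratio was 1.09 (0.995 to 1.19). Plau had no such pattern, since its level was lower in the high state of both libraries. Weighted to the control's mix of MHC class II bins, vancomycin Plaur came to 125 CPM and the ratio to 0.275 in place of 0.447. Cell depth also moved with it: from the shallowest to the deepest of the 4 depth bins Plaur went from 21.35 to 356 CPM with vancomycin and from 115.3 to 556.6 CPM in the control.

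**Figure D3:**
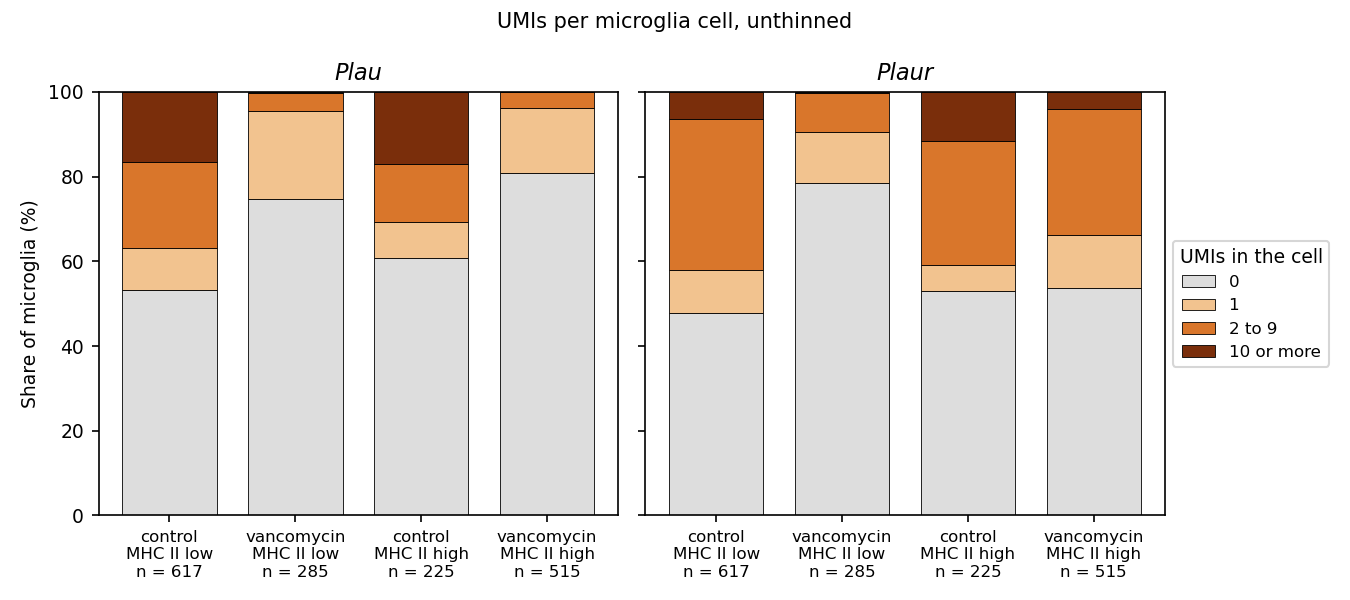
Share of microglia (%, bars stacked to 100) with 0, 1, 2 to 9 or 10 or more UMIs of Plau (left) and Plaur (right), by library and MHC class II state, unthinned. The darkest part, 10 or more Plau UMIs, is 16.5% and 16.9% of control cells and at most 0.351% with vancomycin.

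In control microglia Plau was found more often in cells that also had Plaur than in cells without it. At 1000 UMIs per cell, a Plau UMI was found in 81 of 180 control cells with a Plaur UMI, 45% (37.6 to 52.6), and in 20.3% (17.2 to 23.7) of the 606 cells without. With vancomycin the shares were 7.14% (2.67 to 14.9) of 84 cells and 4.01% (2.68 to 5.75) of 698 cells, and these intervals overlap. Plau and Serpine2 showed no such pairing in the control, with a Plau UMI in 24.1% (18.5 to 30.3) of cells with Serpine2 and 26.7% (23.1 to 30.5) of cells without. Thinned counts are sparse, cells of 1 library share their source, and these shares are descriptions. Thinning evens the counts of cells but not the link of level to original depth. From the shallowest to the deepest control bin Plau went from 194.7 to 839 CPM and Plaur from 115.3 to 556.6 CPM. Serpine2 went from 532.6 to 328.4 CPM, and the part of depth in this pairing was not tested.

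Outside microglia the libraries could be compared for Plaur in 4 types. T cells had 12.17 CPM with vancomycin against 20.19 CPM in the control, and the ratio was 0.603 (0.496 to 0.733). Natural killer cells had 53.37 and 36.56 CPM, a ratio of 1.46 (0.73 to 3.01) from 23 and 15 UMIs. Plasma cells had 24 and 0 UMIs, and fibroblasts 3 and 4. In the vancomycin library monocytes had the highest Plaur level of the types with at least 50 cells, 637.6 CPM (564.6 to 717.4), with a UMI in 77% of cells. Dendritic cells of type 2 followed microglia at 185.8 CPM (171.9 to 200.5), with intervals that overlap. Endothelial cells had 144.3 CPM (109.8 to 186.1) and B cells 81.7 CPM, while dendritic cells of type 1 had 13.25 CPM and astrocytes 0 UMIs.

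Serpine2, the inhibitor, was modestly lower in vancomycin microglia. Its level was 231.9 CPM (219.4 to 244.8; 1302 UMIs) with vancomycin and 338.1 CPM (322.2 to 354.6; 1693 UMIs) in the control, and the ratio was 0.686 (0.638 to 0.738). The share of cells with a UMI was 64.2% and 65.8%, and 23.4% and 27.5% after thinning, with 1.52% and 1.11% in T cells. The ratio was 0.882 (0.794 to 0.978) in the MHC class II low state and 0.729 (0.645 to 0.824) in the high state. Within both libraries Serpine2 was lower in the high state, with high-to-low ratios of 0.605 (0.54 to 0.677) and 0.732 (0.653 to 0.819). At the control's mix of MHC class II bins the ratio was 0.845.

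Outside microglia Serpine2 was highest in oligodendrocyte precursors and astrocytes. In the vancomycin library oligodendrocyte precursors had 1590 CPM (1560 to 1622), with a UMI in 98.1% of cells, and astrocytes 747.7 CPM (664.6 to 838.4). Hormone cells, a type gated on pituitary markers, had 172.2 CPM and oligodendrocytes 16.31 CPM. Fibroblasts had 231.5 CPM with vancomycin against 191.9 CPM in the control, and the ratio was 1.21 (0.965 to 1.52), whose interval includes 1. The 59 border-associated macrophages had 0 Serpine2 UMIs at a median depth of 2921 UMIs, where 3 cells with a UMI would be 5.08%. In T cells the ratio was 1.81 (1.13 to 2.99), from 4.229 and 2.341 CPM.

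The wider pathway was read as 40 genes in 5 lists, chosen with earlier results known, against all 9514 microglia genes with at least 50 UMIs. Over all of these the median log2 ratio was 0.00, with 2.27% at least 2-fold lower and 2.67% at least 2-fold higher with vancomycin. For this and every count of 2-fold genes that follows, 10 CPM was added to both libraries, so that a gene of low level can have a plain ratio under 0.5 and not be counted. Of 7 activators and zymogens only Plau and hepsin (Hpn) were measured, with Plau lower and Hpn at 0.927 (0.619 to 1.39). Plasminogen itself (Plg) had 0 UMIs in microglia of both libraries. Of 9 receptors and cofactors 6 were measured and 1, Plaur, was at least 2-fold lower (median log2 ratio -0.39). Since Plau and Plaur were members of the chosen set, nothing is read from their counts against the background.

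Among the other receptors, the integrin subunit Itgam, which pairs with Itgb2 to form complement receptor 3, was at 278.7 and 559.2 CPM, a ratio of 0.498 (0.468 to 0.53). Itgb2 had a ratio of 0.734 (0.686 to 0.785). The plasminogen receptor gene Plgrkt and enolase Eno1, a plasminogen-binding glycolytic enzyme, had ratios of 1.21 (1.05 to 1.39) and 1.28 (1.19 to 1.39). S100a10, also on this list, had a ratio of 0.726 (0.582 to 0.903). The measured receptors and cofactors thus did not share a direction. Plaur, Itgam, Itgb2 and S100a10 were lower with vancomycin, and Plgrkt and Eno1 were higher.

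Of 8 inhibitors 2 were measured, Serpine2 and Serping1. Serping1, the C1 inhibitor, was at least 2-fold higher, at 50.75 CPM with vancomycin against 2.396 CPM in the control (ratio 21.2, 11.9 to 41.5). Serping1 is also on the fibroblast marker list, whose 9 genes summed to 53.07 and 5.192 CPM in microglia, so that it makes up nearly all of the vancomycin sum. Its vancomycin UMIs lay almost all in the MHC class II high state, with 284 UMIs there and 1 in the low state. Within the high state the ratio was 8.75 (4.93 to 17.1), against 12 control UMIs, so the 21.2 also holds the different mix of states. None of 4 measured clearance receptors passed 2-fold (median -0.15), and Lrp1, which takes up complexes of activator and inhibitor, had a ratio of 0.74 (0.659 to 0.831). None of 5 measured matrix protease genes passed it either (median -0.33). Their ratios ran from 0.325 (0.201 to 0.512) for Adam8, a membrane metalloprotease, to 1.41 (1.32 to 1.51) for Timp2, an inhibitor of matrix metalloproteases.

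**Figure D4:**
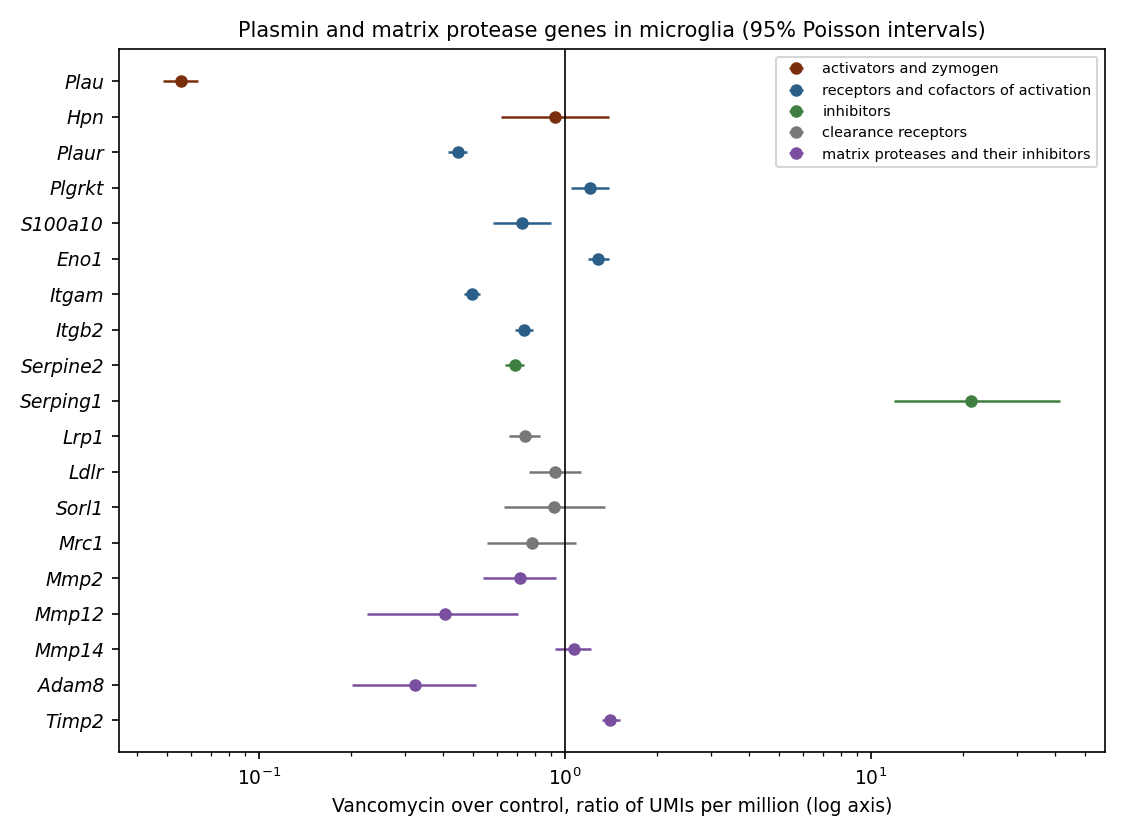
Vancomycin-to-control ratio of CPM (log axis, line at 1) in microglia for each measured gene of the 5 plasmin and matrix protease lists, with 95% Poisson intervals and colours for the list. Plau is lowest at 0.0558, Serping1 highest at 21.2, and the other genes lie between 0.325 and 1.41.

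The wider lists were also read within each state. In the MHC class II low state, where 2.6% of 7973 measured genes were at least 2-fold lower and 3.1% higher, Plau and Plaur were at least 2-fold lower and no gene of the 5 lists was higher. In the high state, where 2.15% of 7896 genes were lower and 2.89% higher, Plau was lower and Serping1 higher by that measure.

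Genes of the early response to stress and growth signals, whose RNA also appears when tissue is dissociated, were read beside Plau. Of 18 such genes 1 was at least 2-fold lower and 2 higher in vancomycin microglia, with a median log2 ratio of 0.09 and summed levels of 29746 and 24075 CPM. The lower one was Fosl1, which encodes the AP-1 subunit Fra-1, with 5 UMIs (0.8904 CPM) and 182 UMIs (36.35 CPM), a ratio of 0.0245 (0.00786 to 0.0582). Fos, another AP-1 subunit, was at 4160 and 1344 CPM, and Ier2, an early response nuclear protein, at 1551 and 713.9 CPM. These AP-1 subunits thus differed between the libraries in opposite directions. None of 7 heat shock genes passed 2-fold (median -0.29, summed levels 4008 and 4860 CPM). Whether dissociation has a part in the Plau ratio was not tested.

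Lists of microglia states were read in the same way. All 7 MHC class II genes were at least 2-fold higher with vancomycin over all microglia (median 1.48), with summed levels of 45594 and 14962 CPM. Within the states, which were cut on 3 of these genes, 1 of 6 measured genes was in the low state (median 0.44). In the high state 0 of 7 were (median 0.51). Of 12 homeostatic microglia genes 1 was at least 2-fold lower, the Fc receptor-like gene Fcrls, with a median of -0.38. Of 11 measured disease-associated microglia genes Lpl, which encodes lipoprotein lipase, and Csf1, a macrophage growth factor, were at least 2-fold lower. Cst7, a protease inhibitor, was at least 2-fold higher, and the median of that list was -0.02. In the low and high states Cst7 had ratios of 1.05 (0.716 to 1.53) and 3.04 (2.53 to 3.67). Those of Fcrls were 0.576 (0.489 to 0.676) and 0.26 (0.183 to 0.367), and Lpl had 0.335 in each state. Csf1 was at 32.77 and 187.3 CPM, a ratio of 0.175 (0.149 to 0.205), and lower in both MHC class II states, with ratios of 0.278 (0.212 to 0.36) and 0.107 (0.0864 to 0.132).

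The likeness of each member to other genes was measured over 21 profiles of type and library, among 5610 genes that reached 100 CPM in at least 1 profile. The profiles share libraries and depth, and the correlations are a description. The genes most like Plau were Fcrls (Pearson r = 0.943), C5ar1 (0.935) and C3ar1 (0.923), the last 2 being complement receptors. Those most like Plat were Gulp1 (0.964), Fam107a (0.963) and Timp3 (0.951). Plaur was most like Abi3 (0.840), Fes (0.830) and Gngt2 (0.829), and Serpine2 most like Sox4 (0.931), Tspan7 (0.904) and Gmpr (0.874). Between members r was 0.526 for Plau and Plaur and 0.575 for Plat and Serpine2. Microglia of both libraries are among the profiles, so a gene that is lower in vancomycin microglia, as Plau was selected for, is favoured as like Plau.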

How the data were processed

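The authors deposited unnormalized UMI counts for each barcode, written by Cell Ranger 7.2.0 (vancomycin) and 6.0.1 (control), per the file headers. The libraries used the 5′ version 2 chemistry, per the labels' protocols, and mm10 and Partek, per the submitters' processing notes. The counting of intronic reads is not given in the sources used. Kept cells had 500 or more UMIs, 200 or more genes and 20% or less mitochondrial UMIs, which left out 5.24% and 3.84% of barcodes. A cell took a type when at least 3 markers and at least 1 in 3 of its list had a UMI and no other family reached more than 50% of that share, which leaves out mixed doublets. No doublet caller was used for the values given, and Scrublet was an alternative. UMIs were summed per type and scaled to its total (CPM). A fold needed at least 50 UMIs over both libraries, except for the members, whose counts are printed. The 4 members, the genes of 10 lists, the 5 genes next to Plau by ratio and the 3 genes most like each member are named, and a few others were chosen after their values were seen. Members and lists were chosen with earlier results of these data known. The values of 1 gene of the inhibitor list are not reported here, and the list is given without it. Values were computed with scipy 1.17.1, numpy 2.4.6 and pandas 2.3.3 in Python 3.11.15, Scrublet scores with scanpy 1.11.5, and alternative scaling factors with DESeq2 1.42.0 and edgeR 4.0.16 in R 4.3.3. The code was tested on simulated data.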

Additional observations from a re-analysis of the deposited data

Results flagged for a closer look

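The vancomycin-to-control ratio of Serpine2 was below 1 in microglia, 0.686 (0.638 to 0.738), and above 1 in T cells, 1.81 (1.13 to 2.99), and natural killer cells, 12.4 (1.86 to 526). These opposite directions drew attention, and the difference between types was not tested, since each group is 1 library. The natural killer cell value rests on 13 and 1 UMIs. The T cell levels of 4.229 and 2.341 CPM are low beside the 1590 CPM of vancomycin oligodendrocyte precursors, of which the vancomycin library had 901 cells and the control 48. Whether free RNA has a part in the T cell and natural killer cell values was not tested.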

How the results depend on the processing

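Alternatives were run for Plau in all microglia and in both MHC class II states and for Plaur and Serpine2 in all microglia, and none turned the direction of these ratios. The Plau ratio in microglia, 0.0558, kept its size within its counting interval under 9 of 12 alternatives, among them TMM and DESeq2 scaling. Some of the 9 could hardly change it. Without the cell filter the gate kept the same 800 and 842 microglia. Without high Scrublet scores it kept 800 and 840, and without shared barcodes 792 and 823. The ratio was 0.258 relative to T cells, which had only 7 and 19 Plau UMIs, 0.0769 with every cell weighted equally and 0.0839 after thinning to 1000 UMIs. In the MHC class II low state the same 3 gave 0.364, 0.0975 and 0.119. In the high state they gave 0.255, 0.0795 and 0.0842, and a broader gate gave 0.0749. Plaur, 0.447, was 0.4 with a stricter gate (182 and 295 cells). Serpine2, 0.686, was 0.455 relative to the other types, 0.622 with equal weights, 0.75 with the stricter gate and 0.587 with the broader gate (1359 and 1136 cells). Plau ranked 3 from the lowest with 1 CPM added and 2 with 50 CPM, in place of 1. No alternative was given for Plat in microglia, which had too few UMIs for a ratio, and none was run for the other ratios. The settings with one macrophage family and without shared barcodes were chosen after seeing the data. Depth limits values that rest on few UMIs, such as Plau outside microglia.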

Other observations

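Cells that met no gate, or more than 1, also held these RNAs. The 3972 such vancomycin cells (median 7000 UMIs) had Plau at 12.22 CPM and Plaur at 93.68 CPM. The 944 such control cells (median 2176 UMIs) had 265.4 and 273.9 CPM. Serpine2 stood at 71.82 and 126.2 CPM and Plat at 14.66 and 18.76 CPM in these cells. The makeup of these cells differs between the libraries by an unknown amount.

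Types with few cells in a library were left out of the comparisons. Monocytes had Plaur at 637.6 CPM in 61 vancomycin cells and 880.5 CPM in 15 control cells. Neutrophils, which carry the urokinase receptor on their surface, had 1796 CPM in 27 cells and 1971 CPM in 11 cells. The 31 vancomycin pericytes, contractile cells of small vessels, had Plat at 570.5 CPM.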
